A study of Mus musculus with 4 samples.

Results

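The metallothionein genes Mt1 and Mt2, the apolipoprotein gene Apoe, the receptor gene Gpr183 and the lectin gene Zg16 were followed in hematopoietic stem and progenitor cells (HSPCs) of young and old mice. These 5 genes, of 28692 in the deposited count tables, were picked out by symbol because their difference with age in these same pools was already known. Their levels by age are therefore given as a description, with no test. What was compared is how each gene differed between cells that carried blood lineage markers and cells that did not, and how it differed between stem-marker and progenitor-marker cells.

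Bone marrow came from male C57BL/6-CD45.2 mice, and every pool was lineage-depleted and sorted as Lin-, Sca1+, cKit+ and Flt3-. There were 2 pools of young mice (2 to 3 months) and 2 of old mice (17 to 18 months), each made from 2 or 3 mice, with no treatment or genetic change. For each age, pool A was captured and sequenced on one platform (HalioDX) and pool B on another (TGML). Pools were the replicates (n = 2 per age), mice within a pool could not be told apart, and age was read from the title and source name of a pool. A longer description attached to young pool B and to old pool A gives the opposite age.

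Metallothioneins are small cysteine-rich proteins that bind zinc and copper, and their genes are switched on by the metal sensor Mtf1 and by glucocorticoids. Apolipoprotein E carries lipids between cells and is a target of the liver X receptors, which sense oxysterols. Gpr183, also called EBI2, is a receptor for dihydroxylated oxysterols that positions lymphoid and myeloid cells. Zg16 encodes a lectin known from the zymogen granules of the pancreas and from intestinal goblet cells.

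Mt1 (ENSMUSG00000031765, chr8:94179082-94180327, plus strand) and Mt2 (ENSMUSG00000031762, chr8:94172664-94173568, plus strand) lie 5514 bases apart on GRCm38. Apoe (ENSMUSG00000002985) is at chr7:19696109-19699188 on the minus strand, Zg16 (ENSMUSG00000049350) at chr7:127050156-127087328 on the minus strand and Gpr183 (ENSMUSG00000051212) at chr14:121952551-121965195 on the minus strand, all as GENCODE vM21 annotates them. The upstream sequences of the metallothionein pair are shown because these neighbours were seen in the same single cells, as described below. The first is the 243 bases before the GENCODE start of Mt1 (chr8:94178839-94179081) and the second the 250 bases before the RefSeq start of Mt2 (chr8:94172368-94172617), from RefSeq on GRCm38.p6, plus strand. Capitals mark matches to TGCACNC or TGCGCNC, the core letters of the metal response element, on either strand.
Mt1 upstream: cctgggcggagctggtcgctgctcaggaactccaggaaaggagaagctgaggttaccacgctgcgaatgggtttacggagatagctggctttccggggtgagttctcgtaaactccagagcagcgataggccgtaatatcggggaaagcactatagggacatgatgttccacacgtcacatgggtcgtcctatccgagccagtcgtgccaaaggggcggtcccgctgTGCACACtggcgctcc
Mt2 upstream: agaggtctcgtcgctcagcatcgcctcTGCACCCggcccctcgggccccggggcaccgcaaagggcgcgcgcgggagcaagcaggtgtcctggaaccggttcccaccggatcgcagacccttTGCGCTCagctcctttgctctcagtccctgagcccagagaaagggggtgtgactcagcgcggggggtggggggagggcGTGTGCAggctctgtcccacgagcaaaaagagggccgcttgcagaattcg
The pair below is the first 30 bases from the RefSeq start of each gene, at chr8:94179089-94179118 for Mt1 and chr8:94172618-94172647 for Mt2. For Mt1 the RefSeq start lies 7 bases past the GENCODE one, and those 7 bases are not shown. For Mt2 the bases shown all lie before the GENCODE start at 94172664. The label of each stretch names the RefSeq start only, and no start of transcription was measured here.
Mt1 start: tcTGCACTCcgcccgaaaagTGCGCTCggc
Mt2 start: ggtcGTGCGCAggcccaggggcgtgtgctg
In the window from 250 bases before to 50 after the RefSeq start, Mt1 held 3 matches and Mt2 held 4. Among all 32851 windows of that length, 25.7% held at least 1, 1.97% at least 3 and 0.517% at least 4. The Apoe and Gpr183 windows held 0 matches of these letters, and Zg16 was not searched. A match is a description of letters and not a measured binding site.

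The kept 14915 of 15566 barcodes lay within 2 SD of their pool's mean log number of unique molecular identifiers (UMIs). Young A held 5189 cells, young B 2244, old A 3328 and old B 4154, with 16399999 to 36446168 UMIs per pool and a median of 5674 to 6719 UMIs per cell. Pools shared between 8 and 26 barcodes. In cells without lineage markers, Kit was seen in 38.0% to 59.2% and Ly6a (Sca1) in 58.6% to 83.0%. Flt3, which the sort excludes at the surface, was seen in 23.8%, 9.88%, 5.10% and 1.77% of these cells in young A, young B, old A and old B. Ly6a differed between the lineage-marker groups described below. It was seen in 15.2% to 25.8% of erythroid-marker and 13.6% to 28.6% of basophil- and mast-marker cells. Of T- and innate lymphoid-marker cells, 63.9% to 85.7% held it. Kit was seen in 33.3% to 66.1% of erythroid-marker and 11.1% to 47.6% of basophil- and mast-marker cells. How far these groups match the sort was not tested. Old pool A stood apart in immediate-early genes, whose summed level was 5050 counts per 1000000 UMIs (CPM) against 428 to 1430 in the other pools. All values below are raw UMIs summed over the cells of a pool and group and given as CPM unless stated otherwise, and intervals on them cover counting error only.

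Over all kept cells, Mt1 stood at 45.9 CPM in young A, 37.4 in young B, 296 in old A and 373 in old B. Mt2 stood at 9.41, 5.30, 90.6 and 146 CPM in the same order. Apoe was at 638 and 673 CPM in young pools against 1238 and 1616 CPM in old pools. Gpr183 was at 1.29 and 2.68 CPM in young pools against 24.1 and 26.0 CPM in old pools. Zg16 was at 1.59 and 1.95 CPM in young pools against 21.4 and 33.6 CPM in old pools. The age groups did not overlap for any of these genes, which is the property they were chosen by. In bulk sums of this kind, fewer cells with a transcript and less transcript per cell cannot be told apart, so the cells were counted as well. For a gene seen mostly as a single UMI per cell, such a count follows the CPM and does not separate them either.

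To compare cells at one depth, each was thinned to 3000 UMIs. Apoe was then seen in 67.1% and 65.9% of cells in the young pools (A, then B) and in 89.4% and 93.8% in the old ones (82.2%, 79.5%, 96.0% and 98.3% unthinned). Mt1 was seen in 9.0% and 6.02% of young against 45.0% and 55.2% of old cells (17.4%, 12.3%, 62.1% and 74.5% unthinned), and Mt2 in 1.98% and 0.775% against 16.2% and 24.2% (3.89%, 1.87%, 24.7% and 40.6% unthinned). UMIs of Gpr183 and Zg16 were seen in few cells at both ages, mostly as a single UMI, so their shares largely follow the CPM. Gpr183 was seen in 0.424% and 0.82% of young and 6.92% and 7.01% of old cells (0.752%, 1.47%, 11.4% and 14.9% unthinned). Zg16 was seen in 0.482% and 0.638% of young and 5.43% and 8.46% of old cells (1.06%, 1.20%, 10.6% and 20.2% unthinned). For Apoe the number of UMIs a cell held differed as well: 24.6% and 37.3% of old cells but 7.0% and 8.29% of young cells held 6 or more Apoe UMIs.

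**Figure D1:**
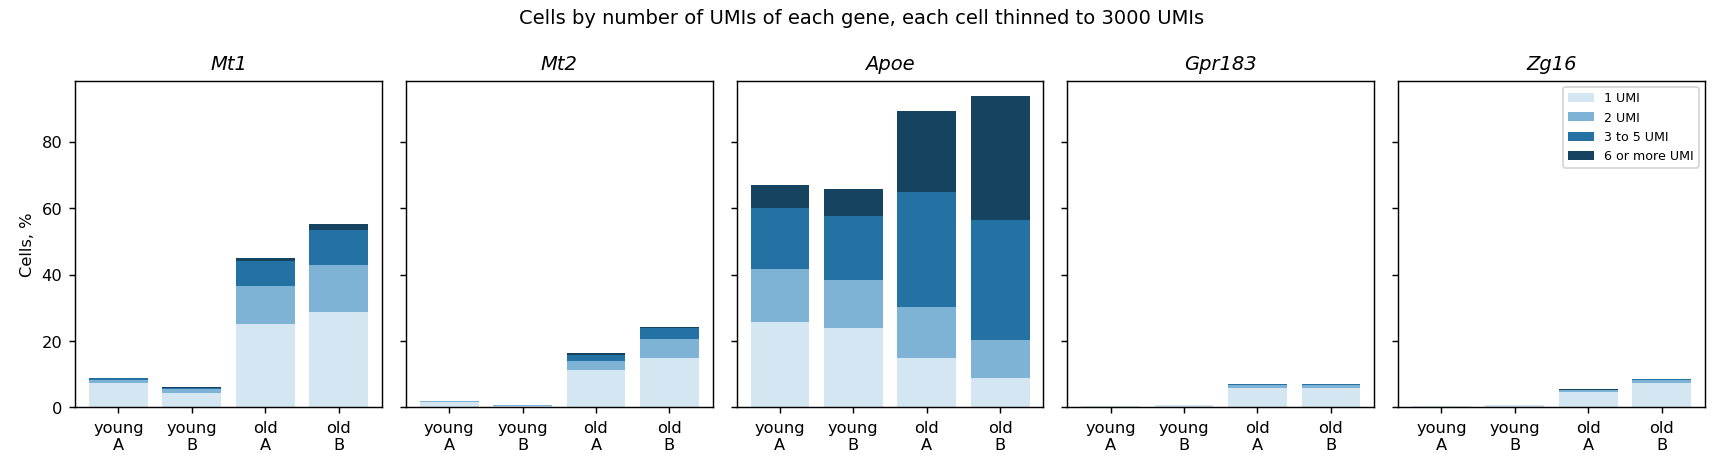
Share of cells (y axis, %) that held 1, 2, 3 to 5 or 6 or more UMIs of each gene in each pool, with every cell thinned to 3000 UMIs. Apoe was seen in 65.9% to 93.8% of cells of each pool, whereas Gpr183 and Zg16 were seen in 0.424% to 8.46%.

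Comparison cells were what the B-, T- and erythroid-marker groups below hold, since free RNA in a droplet gives all cells some UMIs. Apoe stood at 306 and 165 CPM in the B-marker cells of old pools A and B (19 and 8 cells, median 5998 and 12797 UMIs), with a UMI in 68.4% and 50.0% of them, against 1293 and 1666 CPM and 95.8% and 98.6% in the cells without lineage markers (median 5217 and 6343 UMIs). Plasma cell genes made up a large part of the UMIs of these B-marker cells, as given below. That lowers their CPM of every other gene and widens the gap in Apoe. T- and innate lymphoid-marker cells held 138, 239, 672 and 1343 CPM of Apoe in young A, young B, old A and old B. Zg16 gave 1 UMI in the B-marker cells of each old pool. Gpr183 gave 1 to 3 UMIs in the erythroid-marker cells of each pool, at 1.49, 2.36, 6.14 and 5.58 CPM, and thus its level in young cells without lineage markers was not above that of these erythroid-marker cells, whereas that in old ones (27.4 and 29.1 CPM) was.

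Lineage-marker-positive cells were first defined as cells with UMIs of at least 2 different genes of 1 of 7 lineage lists (56 genes in all), and negative cells as those with a UMI of none. This left only 71 negative cells (37, 19, 11 and 4 in young A, young B, old A and old B) against 7943 positive ones, because single markers were almost everywhere: Prtn3, a neutrophil granule protease, was seen in 91.3% of cells. With these classes, edgeR's quasi-likelihood test called 48 of 11392 genes (0.421%) and 0 of the 5 genes followed here (DESeq2 called 0 of 5, and 3 of 5 had an unadjusted p under 0.05 in edgeR). After that was seen, the 13 markers present in over 10% of cells were left out, which gave 1136 positive cells (7.62%) and 9190 negative cells (61.6%). The other 4589 cells held UMIs of marker genes, but of no more than 1 gene of any list. Positive cells were deeper, with a median of 9446, 10473, 7812 and 11493 UMIs against 5485, 5812, 5217 and 6343 in negative cells. The results on lineage classes below use the rarer markers.

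The metallothioneins were higher in lineage-positive than in lineage-negative cells in all 4 pools. Mt1 stood at 138, 184, 485 and 521 CPM in positive cells of young A, young B, old A and old B, against 25.5, 20.5, 275 and 367 CPM in negative cells. Mt2 stood at 36.0, 31.3, 167 and 215 CPM in positive against 4.31, 3.38, 82.7 and 146 CPM in negative cells. The log2 difference was 1.72 (SE 0.34, edgeR adjusted p 0.0012) for Mt1 and 1.64 (SE 0.34, edgeR adjusted p 0.0018) for Mt2. With 2 of 5 genes called against 43.4% of all 12552 genes tested, the share of called genes was near that of the background.

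Apoe, Gpr183 and Zg16 took opposite directions in the 2 ages. Apoe stood at 1094 and 1175 CPM in positive and 497 and 554 CPM in negative cells of young pools, but at 979 and 1073 CPM in positive and 1293 and 1666 CPM in negative cells of old pools. Gpr183 stood at 5.36 and 17.0 CPM (29 and 25 UMIs) in positive and 0.392 and 0.794 CPM (7 and 8 UMIs) in negative cells of young pools. In old pools Gpr183 was lower in positive (8.88 and 12.0 CPM) than in negative cells (27.4 and 29.1 CPM). Zg16 followed the same order, with 4.62 and 10.9 CPM in positive and 0.896 and 0.496 CPM (16 and 5 UMIs) in negative cells of young pools, against 13.8 and 19.0 CPM and 22.6 and 35.8 CPM in old pools. Over both ages the class difference was not called for Apoe (log2 0.39, SE 0.25), Gpr183 (0.23, SE 0.71) or Zg16 (0.22, SE 0.53), with edgeR adjusted p-values of 0.24, 0.82 and 0.77.

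Counts of cells at 3000 UMIs had the order of the CPM in every pool for Gpr183, Zg16 and Apoe but not for the metallothioneins. For Gpr183 and Zg16, seen mostly as a single UMI per cell, that share follows the CPM and is no separate support. Gpr183 was seen in 2.55% and 5.80% of positive and 0.137% and 0.334% of negative cells of young pools, and in 3.37% and 5.39% of positive and 7.45% and 7.67% of negative cells of old pools. Zg16 was seen in 1.27% and 4.35% of positive and 0.308% and 0.201% of negative young cells, and in 4.12% and 4.79% against 5.78% and 8.83% of old cells. Apoe was seen in 75.6% and 70.3% of positive against 64.8% and 64.2% of negative young cells, and in 75.3% and 77.3% against 91.1% and 94.5% of old cells. Mt1 was seen in 22.0% and 22.5% of positive against 6.68% and 4.61% of negative young cells. In old pools it was seen in 47.2% and 53.3% of positive against 45.5% and 55.6% of negative cells. Mt2 was seen in 7.27% and 5.07% of positive against 1.27% and 0.535% of negative young cells and in 19.1% and 22.8% against 15.4% and 24.6% of old cells. For both, old pool B went against the order of its CPM, and no order is read there.

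**Figure D2:**
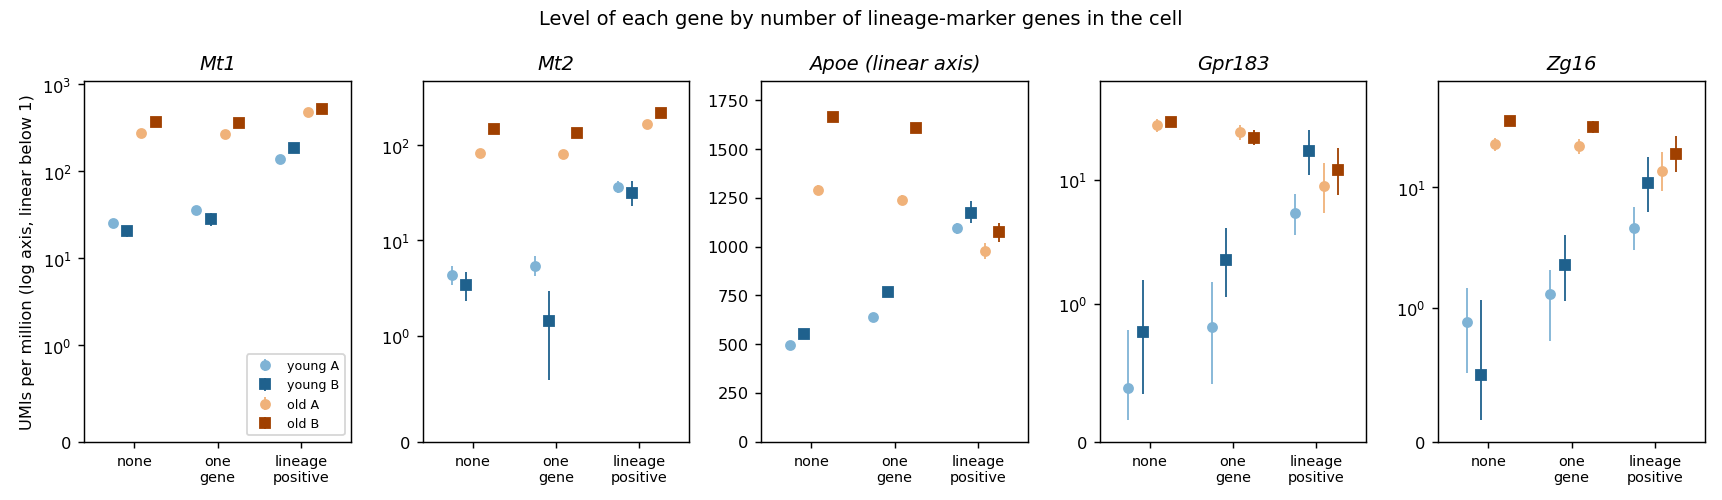
CPM of each gene (y axis, log scale that is linear below 1, except Apoe on a linear axis) in cells with no lineage marker, with marker genes but no more than 1 of any list (labelled one gene) and with 2 or more of 1 list, by pool, with bars for exact 95% counting intervals. Apoe, Gpr183 and Zg16 were higher in positive than in negative cells in both young pools and lower in both old pools.

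The difference between old and young pools was larger in lineage-negative than in lineage-positive cells for all 5 genes, against 1.1% of all 12552 genes called for such a difference in either direction. The extra difference, positive minus negative, was -2.14 (SE 0.20) for Mt1, -2.37 (SE 0.23) for Mt2, -1.66 (SE 0.14) for Apoe, -5.57 (SE 0.42) for Gpr183 and -3.93 (SE 0.47) for Zg16 on the log2 scale. Their edgeR adjusted p-values were 7.1e-07, 1.9e-06, 3.5e-07, 4.7e-08 and 3.7e-05. With the classes first planned, by all 56 markers, edgeR and DESeq2 each called 0 of the 5 genes for this difference. edgeR called 11 of all 11392 genes there, with 71 negative cells, and Apoe had the opposite sign, as given further below. These genes were chosen by the age difference of whole pools, in which positive cells were 7.62% of all cells. One side of this contrast is therefore tied to the value they were chosen by, though not equal to it. Young Mt2, for one, stood at 9.41 and 5.30 CPM over all cells against 4.31 and 3.38 CPM in negative cells. The 1.1% is a share over genes not chosen in that way, so it is not an even background for these 5.

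Both platforms gave the same order. In negative cells, old over young ratios of CPM on platforms A and B were 10.8 and 18.0 for Mt1, 19.2 and 43.1 for Mt2 and 2.60 and 3.01 for Apoe. In positive cells they were 3.52 and 2.83 for Mt1, 4.63 and 6.87 for Mt2 and 0.895 and 0.914 for Apoe. For Gpr183 the ratio was 69.9 and 36.6 in negative cells (7 and 8 young UMIs) and 1.66 and 0.704 in positive cells. For Zg16 it was 25.3 and 72.1 in negative (16 and 5 young UMIs) and 2.98 and 1.75 in positive cells. Thus Mt1 and Mt2 were higher in old pools in both classes, whereas the positive cells of young and old pools overlapped in Gpr183.

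The classes are mixtures of lineages, and the genes had different places among them. Erythroid-marker cells (132, 37, 62 and 33 in young A, young B, old A and old B) held 351, 380, 597 and 597 CPM of Mt1. The same cells held 129, 106, 270 and 324 CPM of Mt2. Their Zg16 was at 16.4, 33.0, 36.8 and 27.9 CPM, with no separation of young and old pools. Apoe in them stood at 1704 and 1620 CPM in young and 1326 and 1348 CPM in old pools. In erythroid-marker cells, neither Apoe nor Zg16 was therefore higher in both old pools than in both young ones.

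Gpr183 of young pools was found instead in basophil- and mast-marker cells (111, 44, 42 and 27), at 20.9 and 51.8 CPM (20 and 17 UMIs). In old pools A and B the same group held 12.97 and 37.2 CPM (4 and 7 UMIs). Cells without lineage markers held 27.4 and 29.1 CPM there. These cells were called by Gzmb, Ms4a2, Fcer1a, Hdc and Cma1. The protease genes Cpa3, Mcpt8 and Prss34 were among the markers left out. They also held much Apoe, at 1310, 1936, 1745 and 1587 CPM, but little Zg16 (0 to 12.97 CPM) and Mt1 at 39.7, 15.3, 84.3 and 133 CPM. In T- and innate lymphoid-marker cells Gpr183 stood at 10.6, 42.6, 40.7 and 14.0 CPM, from 1 to 5 UMIs a pool. Megakaryocyte-marker cells (175, 19, 94 and 73) held 65.4, 64.3, 173 and 397 CPM of Mt1, 976, 599, 935 and 967 CPM of Apoe and at most 11.7 CPM of Gpr183. Neutrophil-marker cells (48, 16, 32 and 12) held 139, 326, 278 and 351 CPM of Mt1 but 473, 575, 369 and 436 CPM of Apoe, below the Apoe of erythroid-marker cells in every pool.

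**Figure D3:**
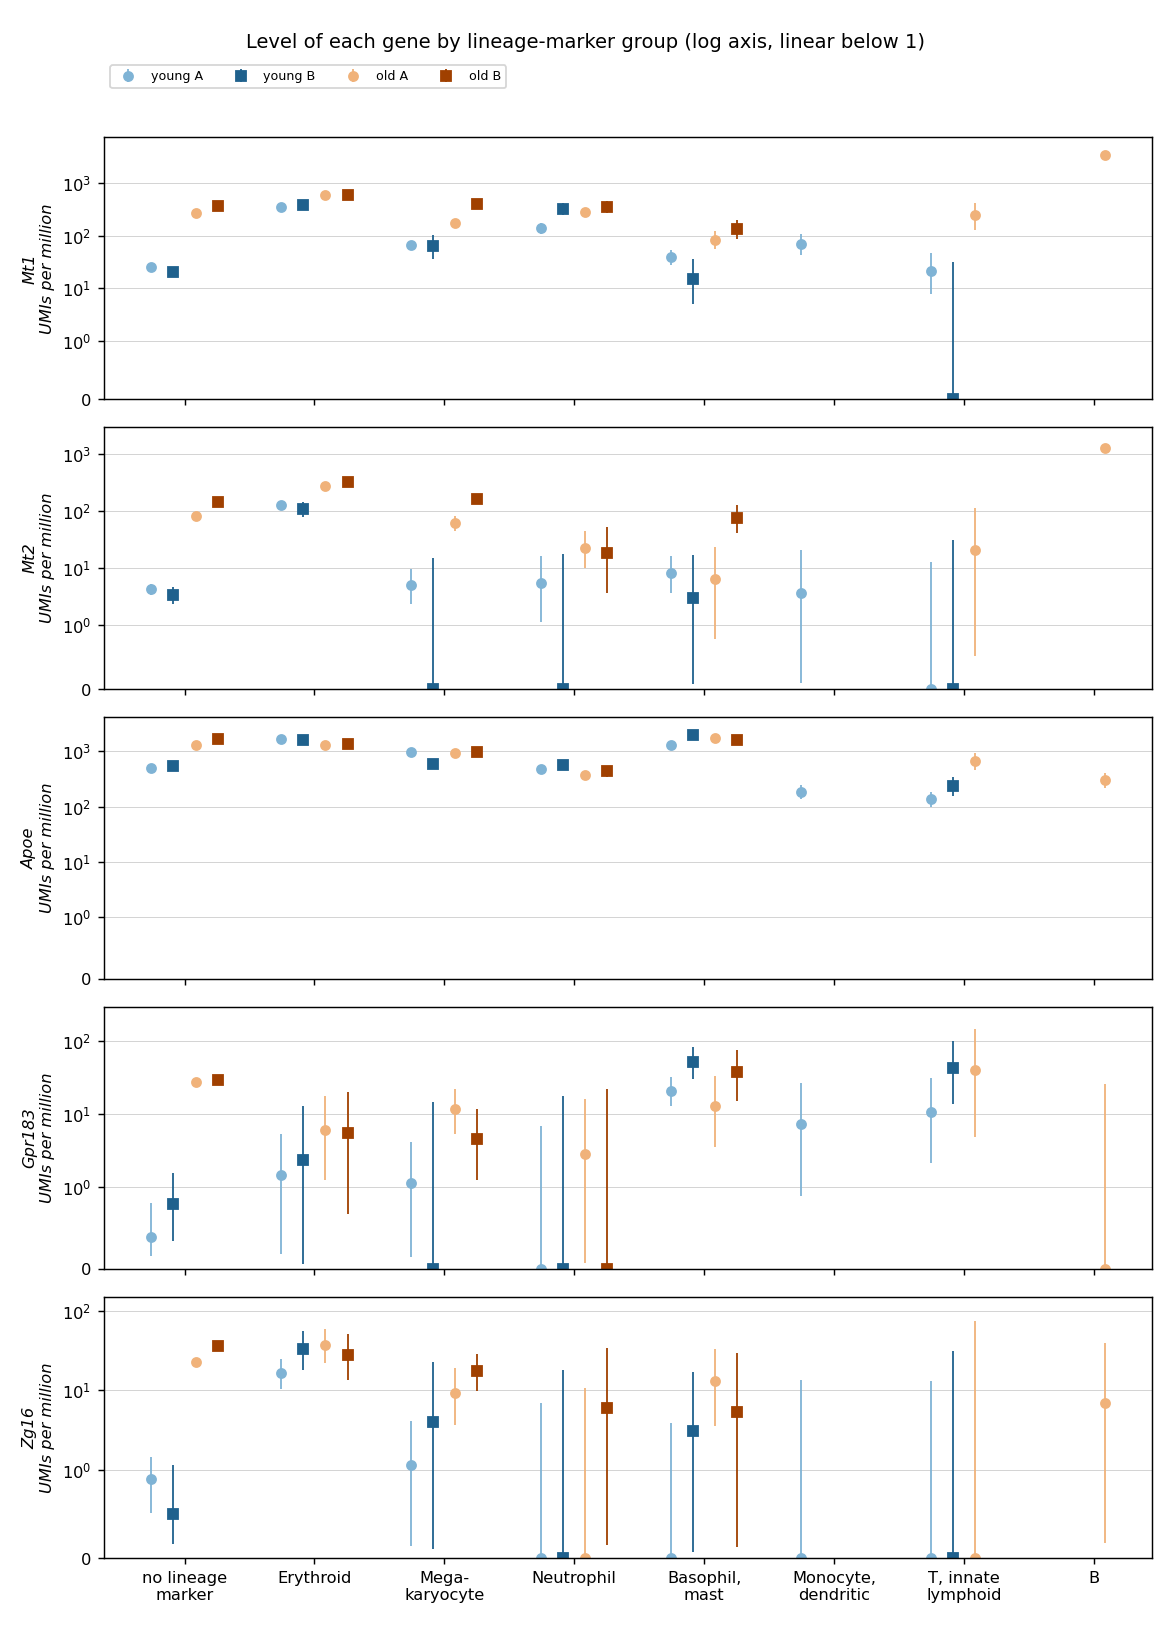
CPM of each gene (y axis, log scale that is linear below 1) by lineage-marker group and pool, for groups of at least 10 cells, with bars for exact 95% counting intervals. Mt1, Mt2 and Zg16 of young pools stood above the level of cells without lineage markers in the erythroid group, and Gpr183 in the basophil and mast group. Young Mt1 also did so in the neutrophil and megakaryocyte groups, and young Gpr183 in the T and innate lymphoid group.

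A few cells held much of these transcripts in young pools. Erythroid-marker cells were 2.54% of young A and 1.65% of young B cells but held 50.4% and 51.7% of their Mt2 UMIs, 37.9% and 43.8% of Zg16 (22 and 14 UMIs) and 28.2% and 26.2% of Mt1. In old pools A and B, where they were 1.86% and 0.794% of cells, they held 7.01% and 2.38% of Mt2, 4.04% and 0.893% of Zg16 and 4.74% and 1.72% of Mt1. Basophil- and mast-marker cells held 42.6% and 38.6% of the Gpr183 UMIs of young pools (20 and 17 UMIs) and 0.8% and 0.808% of those of old pools. Mt2, Zg16 and Gpr183 of young pools therefore came in large part from rare marker-positive cells, in groups where a minority of cells held a Ly6a UMI. In old pools A and B, cells without lineage markers held 836 of 1883 and 3159 of 4872 Mt2 UMIs, the rest lying in cells with 1 or more marker genes.

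**Figure D4:**
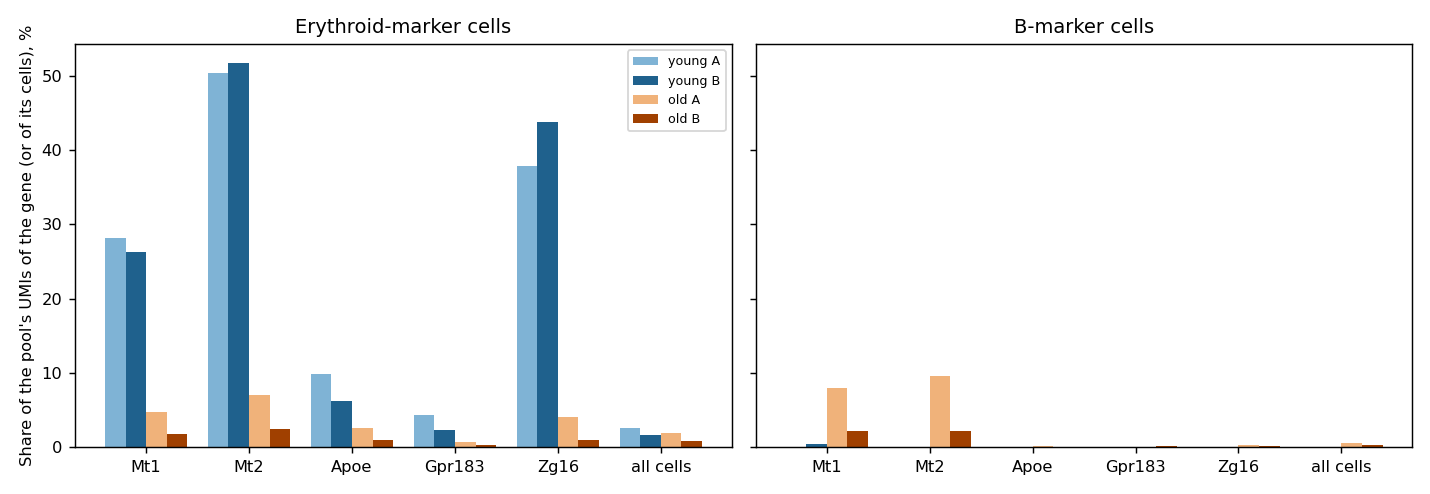
Share (y axis, %) of each pool's UMIs of each gene that lay in erythroid-marker cells (left) and in B-marker cells (right), with the share of the pool's cells in the last set of bars. Erythroid-marker cells held 50.4% and 51.7% of the Mt2 UMIs of young pools and 7.01% and 2.38% of those of old pools.

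With erythroid-marker cells left out of the positive class, an alternative added after these values were seen, the class by age difference was called for Mt1, Apoe and Gpr183 (3 of 5, against 105 of all 12355 genes) but not for Mt2 (log2 0.43, edgeR adjusted p 0.97) or Zg16 (-1.34, edgeR adjusted p 0.94). In that comparison Zg16 was lower in positive than in negative cells (log2 -1.05, edgeR adjusted p 0.0083). Erythroid-marker cells held 88.7% and 97.8% of the 195 and 46 Mt2 UMIs of positive cells in young A and B. They held 88.0% and 87.5% of the 25 and 16 Zg16 UMIs there. Few were left without them, so the missing class by age calls and the sign of Mt2 do not show that the difference was absent. Erythroid-marker cells alone were also tried as the positive class, a setting chosen after the data were seen. Mt1, Mt2, Apoe and Zg16 were then higher than in negative cells by 2.42, 2.82, 0.81 and 1.66 on the log2 scale. Gpr183 was lower (-1.58, edgeR adjusted p 0.0047), so that 5 of 5 were called, against 4754 of all 12047 genes. The class by age difference was then called for 4 of 5 genes, against 73 of all 12047, the exception being Gpr183 (-4.12, edgeR adjusted p 0.31). In both settings the negative class was unchanged, so its age difference stayed tied to the choice of these genes. The class by age counts over all genes are therefore not an even background for them.

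Cells positive for the B list (2, 1, 19 and 8) went against a plain B name, since the plasma cell genes Jchain, Ighm, Igkc, Iglc2, Mzb1 and Sdc1 made up 71.4%, 60.0%, 44.0% and 58.2% of their UMIs. They held 3404 and 2930 CPM of Mt1 and 1250 and 1179 CPM of Mt2 in old pools A and B, above every other group there. In old pool B a single cell held 258 of the 266 Mt1 UMIs and 103 of the 107 Mt2 UMIs, and in old pool A 18 of 19 cells held Mt1. These cells made up 44.9% and 27.8% of the Mt1 UMIs of the positive class of old pools, and without them that class stood at 285 and 396 CPM. Without them the class difference was 1.39 for Mt1 (edgeR adjusted p 0.016) and 1.25 for Mt2 (edgeR adjusted p 0.027). A lower class by age difference was kept by 5 of 5 genes, against 150 of all 12510 called in either direction. The negative class was unchanged there too, so that count is not an even background for these 5. Without both B- and erythroid-marker cells, Mt1 (0.64, edgeR adjusted p 0.13) and Mt2 (-0.44, edgeR adjusted p 0.071) were no longer called between classes. Plasma cell genes also gave 1104 CPM in negative cells of old pool A against 51 to 97 CPM in those of the other pools, and their part in the levels there was not tested.

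Within lineage-negative cells, stem-marker cells (UMIs of at least 2 of Procr, Slamf1, Mecom, Hlf, Fgd5 and Hoxb5 and none of Cd34 or Cd48) were compared with progenitor-marker cells (a Cd34 or Cd48 UMI and at most 1 stem gene). There were 542, 339, 869 and 1585 stem-marker and 902, 441, 164 and 256 progenitor-marker cells in young A, young B, old A and old B. All 5 genes were higher in stem-marker cells, against 25.9% of the 11014 genes tested called in either direction. Stem-marker cells were a larger part of old than of young pools, and these genes were chosen by their age difference over whole pools. The 25.9% is therefore not an even background for them. Apoe stood at 740, 793, 1419 and 1792 CPM in stem-marker and 407, 488, 878 and 1187 CPM in progenitor-marker cells, a log2 difference of 0.73 (SE 0.05, edgeR adjusted p 2.7e-14). Each pool showed that order for Apoe, and the young stem-marker cells stayed below the old progenitor-marker cells.

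Mt1 stood at 34.5, 26.1, 293 and 394 CPM in stem-marker against 20.9, 19.9, 205 and 267 CPM in progenitor-marker cells (log2 0.59, SE 0.08, edgeR adjusted p 2.3e-07). Mt2 stood at 4.58, 5.98, 89.9 and 161 CPM against 3.89, 2.32, 56.5 and 112 CPM (log2 0.62, SE 0.11, edgeR adjusted p 6.8e-05). Gpr183 had the widest of these differences, 1.43 (SE 0.23, edgeR adjusted p 1.0e-05). It stood at 33.1 and 33.4 CPM in old stem-marker against 10.6 and 14.2 CPM in old progenitor-marker cells. In young pools it rested on 2 and 4 UMIs in stem-marker cells and 0 and 3 UMIs in progenitor-marker cells, where 0 of 902 cells with a UMI allows a share of such cells of up to 0.333% and sets no limit on cells that express the gene. Zg16 stood at 26.5 and 41.1 CPM against 15.3 and 25.6 CPM in old pools (log2 0.78, SE 0.20, edgeR adjusted p 0.0027), with 1 to 5 UMIs in each young group but young B progenitor-marker cells, where 0 of 441 cells with a UMI allows a share of such cells of up to 0.680%.

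**Figure D5:**
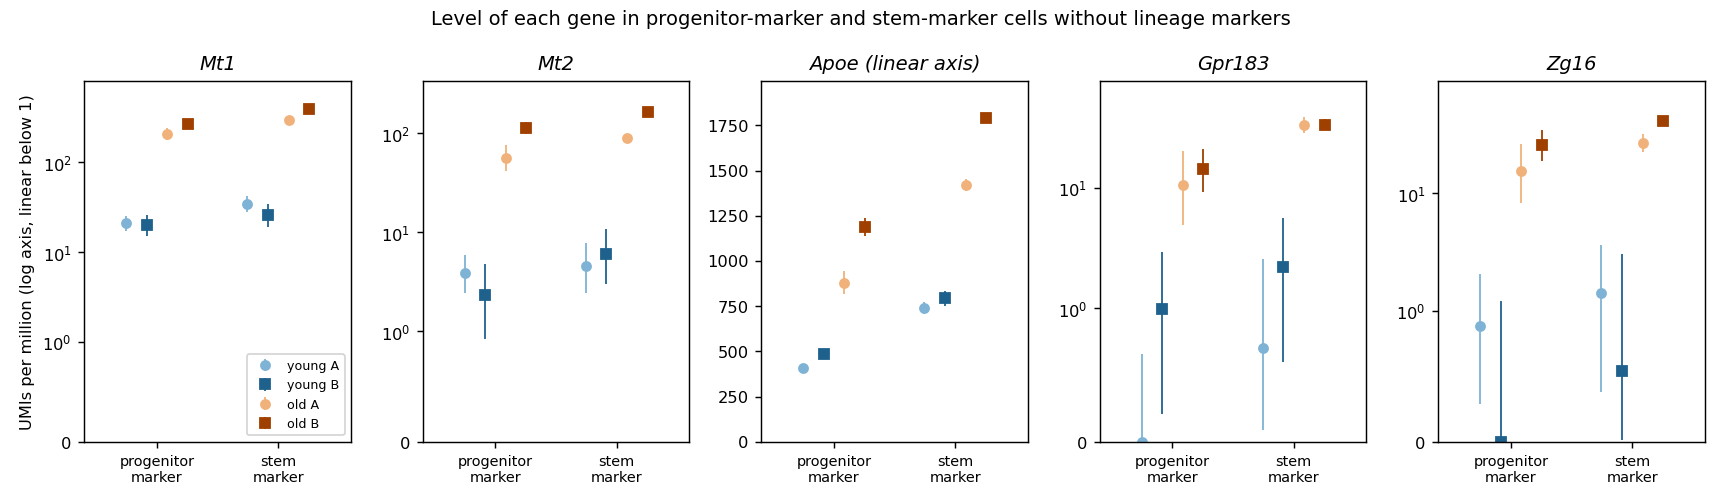
CPM of each gene (y axis, log scale that is linear below 1, except Apoe on a linear axis) in progenitor-marker and stem-marker cells without lineage markers, by pool, with bars for exact 95% counting intervals. Every gene was higher in stem-marker cells of both old pools, and the gap between young and old pools was seen in both classes.

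A difference of the age gap between stem-marker and progenitor-marker cells was called for 0 of the 5 genes by edgeR (0 with an unadjusted p under 0.05, and 0 of 3 tested by DESeq2), against 0.808% of all genes. The extra log2 difference was -0.003 (SE 0.16) for Mt1, 0.002 (SE 0.24) for Mt2 and -0.09 (SE 0.08) for Apoe. For Gpr183 (-0.26, SE 0.79) and Zg16 (-0.16, SE 0.76) the errors were wide because of the few UMIs in young cells. The fitted age difference, given as a description, was 3.45 in both classes for Mt1 and 1.03 and 1.13 for Apoe in stem-marker and progenitor-marker cells. It was 1.45 for Apoe in all negative cells, where the mix of stem-marker and progenitor-marker cells also differed between ages.

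In single lineage-negative cells of old pools, the metallothioneins went together more closely than any other pair by r. Among thinned lineage-negative cells, Mt1 was seen in 69.8% of old A cells with Mt2 against 41.1% of those without, and in 78.1% against 48.3% of old B cells (Pearson r of log UMIs 0.37 and 0.39 over 1678 and 2934 cells). In young lineage-negative cells that r was 0.005 and 0.045, with 3 and 1 cells holding both, whereas over all young cells it was 0.27 and 0.23, with 40 and 6 cells holding both. Every other pair had an r of at most 0.11 in old lineage-negative cells. Mt2 was seen in 32.0% of old A cells with Zg16 against 14.4% of those without, and in 30.1% against 24.0% of old B cells. Mt1 was seen in 53.6% against 45.0% and in 68.3% against 54.4% by Zg16, and Mt2 in 18.4% against 15.1% and in 32.9% against 23.9% by Gpr183. Apoe, seen in over 90% of old cells, was held together with most of the others, and Gpr183 and Zg16 were seen together in 5 and 22 cells with an r of -0.01 and 0.009. The cells of a pool share a library, and these sparse counts give no more than a description.

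Over 23 sums of at least 20 cells by pool and lineage group, which share libraries and depth, the levels of Mt1 and Mt2 had a Pearson r of 0.92 on the log2(CPM + 1) scale. Zg16 had an r of 0.84 with Mt2, 0.75 with Mt1 and 0.73 with Apoe, whereas that of Gpr183 with the other genes was 0.13 to 0.40. The sums mix young and old pools, and these genes were chosen by their age difference. Their r with each other is therefore in part fixed by the choice. Among 7705 other genes, those most like Mt1 were Tnfaip2 (0.78), Dyrk3 (0.77) and Aqp1 (0.75), and those most like Mt2 were Plscr1 (0.81), Tnfaip2 (0.79) and Ldha (0.78). Apoe was nearest to Cd55 (0.90), Trappc6a (0.82) and Icam4 (0.79). Zg16 was nearest to Plscr1 (0.88), Epdr1 (0.82) and Mrpl52 (0.81). Gpr183 was nearest to Tmem9b (0.75), Rpp21 (0.72) and Ctsd (0.70).

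The genes that work with these were examined in lists, with 2.03% of 13555 genes called between ages (275 genes, 217 of them higher in old pools). Without the platform block edgeR called 0 genes (1103 at an unadjusted p under 0.05). Fits that left out both the block and 1 pool called 287 without young A, 160 without young B, 4 without old A and 0 without old B (1040 at an unadjusted p under 0.05). Of 19 tested metal-handling genes, Mt3 rose (0.110 and 0.244 CPM in young against 1.92 and 4.09 CPM in old pools, log2 4.01, edgeR adjusted p 0.028) and none fell, so that the zinc transporters and the sensor Mtf1 were not called. The median log2 age difference was 0.08 for this list and 0.01 for all genes. Between lineage classes, where 43.4% of all genes were called, 5 of 19 were: the zinc exporter gene Slc30a5 was higher in positive cells and Slc30a4, Slc39a11, Slc39a13 and Slc39a14 were lower. Slc39a13 was higher in stem-marker than in progenitor-marker cells (log2 0.64, edgeR adjusted p 0.0032).

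Of 17 tested lipoprotein and liver X receptor genes, Lpl, the lipoprotein lipase gene, was called between ages (0.960 and 1.65 CPM in young against 15.4 and 16.0 CPM in old pools, log2 3.60, edgeR adjusted p 0.012), and the list's median was 0.11. In lineage-positive cells 7 of 15 tested genes were lower, among them the lipoprotein receptor gene Vldlr, the nuclear receptors Nr1h3 and Rxra, the transporter Abcg1 and the ligase Mylip. Apoc1 was higher (log2 1.94, edgeR adjusted p 0.0014), so that 8 of 15 were called, near the 43.4% of all genes, and the median of the list was -0.37 against -0.06 for all genes. In stem-marker cells Vldlr and Abcg1 were lower. Of the enzymes that make or break down the ligand of Gpr183, 0 of 3 tested were called between ages by edgeR, and Cyp7b1 (-1.19, edgeR adjusted p 0.0011) and Cyp27a1 (-1.81, edgeR adjusted p 0.018) were lower in positive cells.

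Of 12 immediate-early and dissociation genes, Atf3 (0.494, 0.122, 30.6 and 1.71 CPM in young A, young B, old A and old B, edgeR adjusted p 0.014) and Dusp1 (65.4, 13.5, 433 and 43.8 CPM, edgeR adjusted p 0.034) rose with age, with a list median of 1.26. Old pool A led both, and each platform A pool exceeded its platform B pool of the same age. In lineage-positive cells 7 of the 12 were lower (Fosb, Jun, Jund, Egr1, Ier2, Dusp1 and Zfp36) and Hspa1a and Hspa1b higher, against 43.4% of all genes called. In stem-marker cells 9 of 11 tested were higher, against 25.9% of all genes called in either direction. The summed level of the list in negative cells, 1564, 432, 5472 and 975 CPM, did not order the pools as Mt1 or Apoe did, and its part in their levels was not tested. Of 8 glucocorticoid response genes 0 were called between ages by edgeR. Zbtb16 was higher and Tsc22d3, Ddit4 and Klf9 lower in positive cells (4 of 8, against 43.4% of all genes). In stem-marker cells Tsc22d3 and Klf9 were higher and Fkbp5 lower (3 of 8, against 25.9%).

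Of the genes next to these on the chromosome, Mt3 was the only tested one outside the 5 followed here that edgeR called between ages. Those not called were Nup93 beside the metallothioneins, Apoc1, Tomm40 (105, 33.0, 80.7 and 85.7 CPM) and Nectin2 beside Apoe, Gpr18, 1810041H14Rik and Ubac2 beside Gpr183, and AI467606 beside Zg16. Ubac2 spans Gpr183 on the other strand and stood at 63.3, 48.8, 77.5 and 69.0 CPM. The antisense gene Gm45774 overlaps Mt2 and was not analysed here, and Gm44939 lies within Zg16 at 0 to 0.0901 CPM. Reads of such partners could be told apart only if strand was used in counting, which the sources used here do not state.

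Of the other cells that the sort could hold, plasma cells gave the most signal, with 6 genes that summed to 579, 475, 4287 and 2090 CPM in young A, young B, old A and old B, and their part in the age differences was not tested. Macrophages are known to make Apoe. Their genes summed to 10.8 to 19.0 CPM per pool over 10 genes, stromal genes to 7.65 to 13.7 CPM over 7, endothelial genes to 2.26 to 8.85 CPM over 5 and mature neutrophil genes to 4.30 to 8.13 CPM over 6. In negative cells the macrophage list stood at 13.4, 11.5, 9.99 and 8.94 CPM in the same order of pools, and their part in the Apoe levels was not tested.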

How the data were processed

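Single-cell 3′ libraries (10x Genomics v2) of 4 HSPC pools were analysed. The authors deposited unnormalized counts of UMIs for each gene and barcode, made with Cell Ranger 2.2.0 on mm10 (GRCm38.p4), as the submitters' processing notes name them. Which annotation was used is not given in these sources. Cells whose log UMI count lay over 2 SD from their pool's mean were dropped, as in the study. Doublets were not called, and an alternative left out cells positive for 2 or more lists.

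UMI counts were summed per pool and class and tested with edgeR 4.0.16 (R 4.3.3, quasi-likelihood, TMM, filterByExpr), two-sided, with Benjamini-Hochberg adjustment over all genes tested and a threshold of 0.05. Pool was a block for classes and platform a block for age. DESeq2 1.42.0 was the alternative, and each fit was tested on simulated data. Platform letters pair the pools by facility, and the difference of A minus B had a correlation of 0.62 between ages over 7844 genes. Thinning to 3000 UMIs left out 230 cells. Intervals on CPM and on shares of cells are exact 95% Poisson and binomial intervals, and a count of 0 was set to a limit of 3 counts. Each pool mixes 2 or 3 mice that cannot be told apart, so no p-value measures the spread between mice. With pool as a block, p-values of class tests measure how the class difference varied between pools. With platform as a block, those of age tests measure how the age difference varied between platforms.

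The 5 genes, the lists and the tests were chosen with earlier results of these data known. The lineage classes by rarer markers were chosen after the data were seen. So were the settings without B- or erythroid-marker cells and that with erythroid-marker cells alone. Genes named besides the 5 were those of the lists that were called, the 3 annotated neighbours on each side (GENCODE vM21), and the 3 with the highest likeness to each, with a mean of at least 10 CPM. Some called genes of the lists are not reported here. Promoter windows came from RefSeq on GRCm38.p6.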

Additional observations from a re-analysis of the deposited data

Results flagged for a closer look

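The class by age differences, positive minus negative, stood out for all 5 genes, with edgeR values of -2.14 for Mt1, -2.37 for Mt2, -1.66 for Apoe, -5.57 for Gpr183 and -3.93 for Zg16 on the log2 scale. These values are by the rarer markers, whereas by all 56 markers edgeR called 0 of the 5 genes. The genes were chosen by the age difference of whole pools, in which most cells lay outside the positive class. One side of this contrast was therefore tied to the choice, though not fixed by it. Without erythroid-marker cells 3 of 5 were called, and Mt2 stood at 0.43 (edgeR adjusted p 0.97) and Zg16 at -1.34 (edgeR adjusted p 0.94). Few UMIs of Mt2 and Zg16 were left in young positive cells there. Gpr183 in lineage-positive cells went up with age on platform A (log2 0.73 for the ratio of CPM) and down on platform B (-0.51), from 20 to 29 UMIs in each pool, and the difference between platforms was not tested.

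Among the immediate-early genes, the age difference varied between lineage classes for Junb and Atf3 of 12 tested, against 1.1% of all genes called. Between stem-marker and progenitor-marker cells it varied for Jun and Egr1 of 11 tested, in opposite directions, against 0.808% of all genes called. It was smaller in lineage-positive cells for Junb (-1.02) and Atf3 (-4.32), larger in stem-marker than in progenitor-marker cells for Jun (0.38) and smaller for Egr1 (-0.95), all by edgeR. Old pool A held the highest level of each of these 4 genes.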

How the results depend on the processing

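Classes by all 56 markers rested on few negative cells and were unstable. Of the genes called, edgeR gave 48 for the lineage difference, and 15 with DESeq2, 605 with classes at 3000 UMIs and 131 with at least 3 marker genes. The count was 3785 when negative cells could hold 1 gene of each list (called up to 1 gene below). It was 21 without cells of 2 or more lists and 18 to 72 with 1 pool left out. The class by age count was 11, and 0 with DESeq2, 23 at 3000 UMIs, 47 with negative cells of up to 1 gene and 0 to 23 with 1 pool left out. There the class by age difference of Apoe, 0.69, became -0.47 at 3000 UMIs and -0.62 with negative cells of up to 1 gene. The stem-marker difference gave 3 genes of 211, Apoe among them (1.99, edgeR adjusted p 0.024), and 0 with DESeq2, 443 at 3000 UMIs and 0 to 13 with 1 pool left out. Its class by age gave 0 (12 at an unadjusted p under 0.05), 1 without the low-count filter, 1 at 3000 UMIs and 0 to 2 with 1 pool left out.

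With the rarer markers, the stem-marker difference was called for 2856 genes, and for 1510 with DESeq2 and 1868 to 2531 with 1 pool left out. The lineage class by age count was 138, and 57 with DESeq2, 221 without the low-count filter, 209 at 3000 UMIs, 73 with erythroid-marker cells as the positive class and 114 to 284 with 1 pool left out, where leaving out old pool B gave 284. The stem-marker class by age count was 89, and 14 with DESeq2, 147 at 3000 UMIs and 34 to 89 with 1 pool left out, where leaving out young pool A gave 34 and old pool B 40. Apart from the erythroid settings, each setting tried for the lineage class by age difference with rarer markers called 5 of 5 genes. The stem-marker difference was called for 4 of 5 with DESeq2 and without old pool B, and otherwise for 5 of 5.

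Directions that turned were those near 0 or those resting on the erythroid-marker cells. The lineage difference of Gpr183 was -0.11 without the UMI filter, -1.58 with erythroid-marker cells as the positive class and -0.39 to 1.19 with 1 pool left out. That of Zg16 was -1.05 without erythroid-marker cells, -1.07 without B- and erythroid-marker cells and -0.19 to 1.11 with 1 pool left out. That of Mt2 was -0.44 without B- and erythroid-marker cells, and its class by age difference 0.43 without erythroid-marker cells, where few UMIs of young positive cells were left. The stem-marker class by age difference of Mt1 was 0.079 without the low-count filter, 0.28 at 3000 UMIs, 0.0054 without the UMI filter and -0.12 to 0.14 with 1 pool left out. That of Mt2 was -0.039 with DESeq2 and -0.80 to 0.39 with 1 pool left out. At 3000 UMIs it was 0.0064 for Apoe, 0.050 for Gpr183 and 0.70 for Zg16, and with 1 pool left out it was -0.17 to -0.039 for Apoe, -3.24 to 0.24 for Gpr183 and -3.58 to 0.12 for Zg16. The cause of these moves was not tested.

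Without the replicate block, which pairs the classes of a pool or the pools of a platform, edgeR called 22 genes for the class difference by all markers, 1609 against 5453 for that by rarer markers and 0 against 275 between ages, where DESeq2 called 528, a fit without the low-count filter 774 and fits with 1 pool left out 0 to 287. The lineage difference without the block was 1.80 for Mt1 and 1.92 for Mt2, and both stayed called. The fits of age with 1 pool left out used no block and took the spread of the remaining single pool from the other age. Gpr183 and Zg16 in young negative cells had 5 to 16 UMIs a pool, which limits every ratio built on them.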
